A study of Mus musculus with 9 samples.

Results

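The cyclins, cyclin-dependent kinases (CDKs) and CDK inhibitors that run the G1 phase of the cell cycle were examined in splenic CD4+ T cells stimulated through the TCR with or without TRAIL. The set held 10 genes, chosen by symbol from the 55487 genes of the expression table: the D-type cyclins Ccnd1, Ccnd2 and Ccnd3, the E-type cyclins Ccne1 and Ccne2, the kinases Cdk4, Cdk6 and Cdk2, and the inhibitors Cdkn1b (p27) and Cdkn2c (p18). All 10 were found and all 10 passed the filter on low values. The cells came from wild-type C57BL/6 mice and were purified from spleen by negative selection, which removes other cell types and leaves the CD4+ T cells untouched. Cells were left in medium, stimulated for 24 h with Abs to CD3 at 3 µg/ml plus Abs to CD28 at 2 µg/ml, or given both Abs together with TRAIL at 10 µg/ml, also for 24 h. The culture time of the medium group was not given in the sources used here. Each group had 3 libraries, and the labels do not say whether they came from separate mice, so the p-values below measure only the spread between these samples, which may be technical. RNA was measured in bulk as TPM (transcript abundance scaled to a fixed total per library), which accounts for gene length and lets levels of different genes be set side by side.

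A resting T cell sits outside the cell cycle, and engagement of the TCR with CD28 moves it into G1. D-type cyclins bind CDK4 or CDK6, cyclin E binds CDK2, and both kinds of complex phosphorylate the retinoblastoma protein, which releases E2F factors and opens S phase. The INK4 protein p18 blocks CDK4 and CDK6, whereas p27 binds cyclin E-CDK2 and is well known as a brake of resting lymphocytes. Cyclins D2 and D3 are the main D-type cyclins of lymphocytes, and cyclin D1 is used mostly by other cell types. Cyclin and p27 proteins are also controlled by degradation, which RNA does not show.

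Medium libraries carried transcripts of other spleen cells, and these moved with the conditions. Summed TPM over 7 T cell markers was 2845 ± 114 (SD, n = 3 here and for every mean below) in medium, 2256 ± 16.1 in stimulated and 2909 ± 162 in TRAIL-treated libraries, with Cd4 present in every library. Summed TPM over 8 B cell markers was 6049 in medium, 710 in stimulated and 3222 in TRAIL-treated libraries, and over 8 macrophage and monocyte markers it was 1368, 27.7 and 1138. All 8 B cell and all 8 macrophage markers were lower in stimulated than in medium libraries and higher again with TRAIL. The 6 erythroid markers summed to 2353, 30.2 and 640 TPM, and the 4 neutrophil markers to 690, 32.2 and 379 TPM. The 4 NK cell markers summed to 235, 247 and 80.6 TPM, although 3 of them were lower on stimulation and only 1, Gzma, was higher. The other sums were, for the 2 CD8 T cell markers, 114, 101 and 48.5 TPM and, for the 4 dendritic cell markers, 50.3, 11.8 and 31.0 TPM. The part of these cells in each result below was not tested, and in bulk RNA fewer cells of a type and less RNA per cell cannot be told apart.

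Replicate 1 of the stimulated group stood apart. It had 1408 genes at a level more than 1.5-fold below both other stimulated libraries and 266 above, together 10.8% of the 15536 genes tested, against 1.2 to 2.75% in the other 8 libraries. The genes that were low in it had a median longest transcript of 5863 bases, compared with 2721 bases for all genes tested. Among the G1 genes, Cdk6 (11525 bases) and Ccnd2 (6330 bases) have the longest transcripts, and both were lowest in that library of the stimulated group.

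Groups were compared with limma on log2(TPM + 1), and a gene passed at a Benjamini-Hochberg adjusted p under 0.05 over all genes tested. Ratios below are ratios of mean TPM, and log2 fold changes are on the log2(TPM + 1) scale, which understates changes at low TPM. Of the 10 G1 genes, 8 passed in stimulated against medium cells (5 higher, 3 lower), where 68.7% of all genes tested passed (28.8% higher, 40.0% lower). In TRAIL-treated against stimulated cells 9 passed (2 higher, 7 lower), against 67.1% of all genes (33.5% higher, 33.5% lower). In TRAIL-treated against medium cells 7 passed (1 higher, 6 lower), against 32.6% of all genes (8.03% higher, 24.6% lower), and 4 (1 higher, 3 lower) without medium replicate 3, without TRAIL-treated replicate 2 or 3, or under median-of-ratios scaling. Most of the genes tested passed in the comparisons with stimulated cells, so the counts there say little about the G1 genes, and the values of the single genes are given below. When the log2 fold change also had to reach 1 in either direction, 6 genes passed on stimulation (background 31.9%), 6 with TRAIL against stimulation (30.9%) and 1 with TRAIL against medium (4.62%). Libraries of the groups compared did not overlap for 8 genes (background 72.6%), 9 genes (70.4%) and 8 genes (50.6%). The median log2 fold change of the G1 genes was 0.41, -0.50 and -0.38 in these comparisons, and that of all genes tested was -0.15, 0.011 and -0.18. The comparisons share libraries, so that a high or low stimulated value enters both comparisons with that group.

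**Figure D1:**
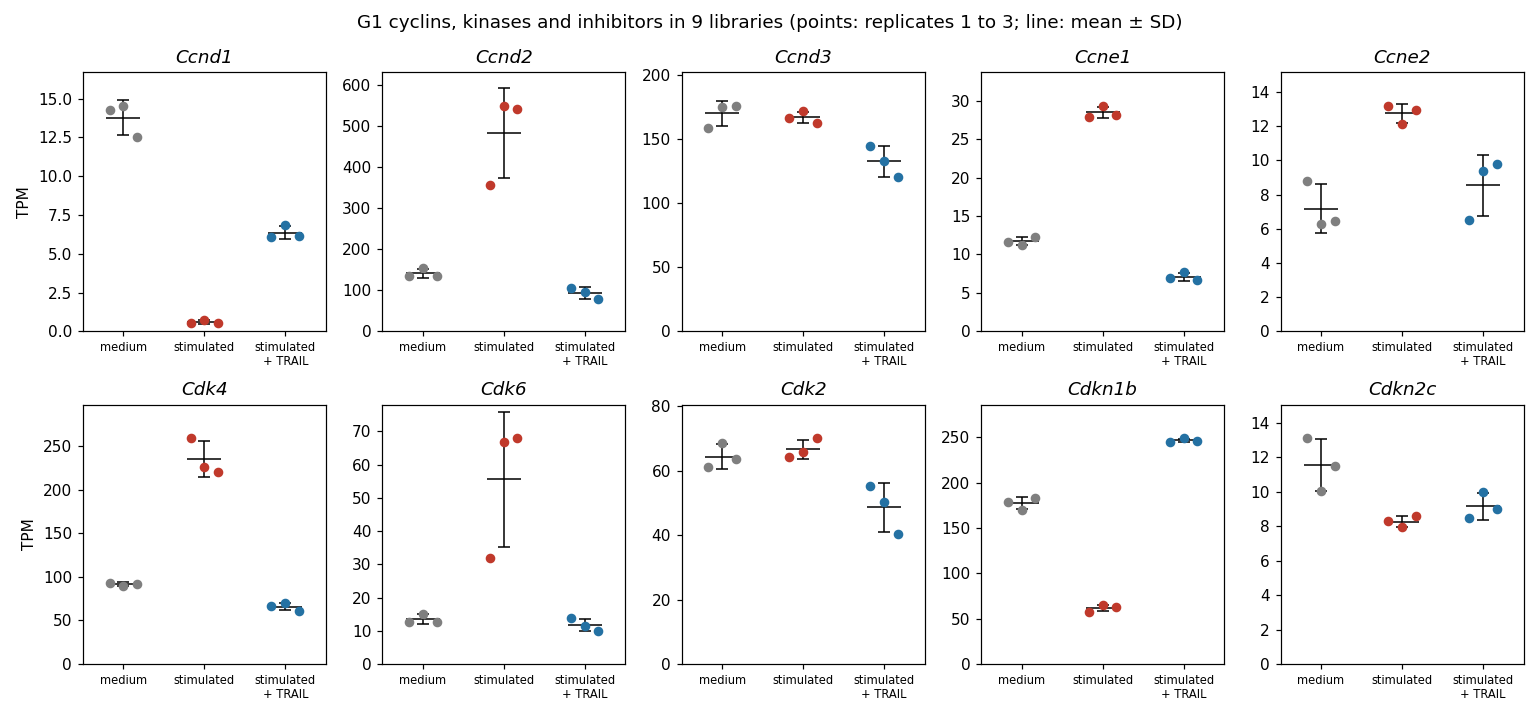
TPM (vertical axes, from 0) of the 10 G1 genes in 3 medium, 3 stimulated and 3 TRAIL-treated libraries, 1 point per library in replicate order with mean ± SD. Ccnd2, Ccne1, Ccne2, Cdk4 and Cdk6 were highest in the stimulated group, Ccnd1 and Cdkn1b were lowest there, and Cdkn1b was highest with TRAIL.

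Among the D-type cyclins, Ccnd2 rose most on stimulation. Ccnd2 (ENSMUSG00000000184, chromosome 6, 127125162 to 127152193, minus strand, GRCm38) encodes cyclin D2, which is made early after TCR engagement. Its level was 134, 154 and 136 TPM in medium, 357, 549 and 542 TPM after stimulation, and 106, 95.6 and 78.2 TPM with TRAIL. No stimulated library overlapped with either other group, although replicate 1 was well below the other libraries of its group. Ccnd2 rose 3.42-fold on stimulation (log2 fold change 1.74, SE 0.17, adjusted p = 8.6e-06) and was 5.18-fold lower with TRAIL than with stimulation alone (log2 fold change -2.35, SE 0.17, adjusted p = 9.7e-07). Without stimulated replicate 1 these log2 fold changes were 1.95 and -2.55. TRAIL-treated cells were also below medium (log2 fold change -0.60, adjusted p = 0.0244), but this call was lost without medium replicate 1, 2 or 3 or TRAIL-treated replicate 2 or 3 (adjusted p between 0.0501 and 0.0987) and when all genes were tested without a filter (adjusted p = 0.0693).

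Ccnd3 did not pass on stimulation and was lower with TRAIL. The gene (ENSMUSG00000034165, chromosome 17, 47505051 to 47599691, plus strand) encodes cyclin D3, which thymocytes need to expand. Its level was 159, 175 and 176 TPM in medium, 166, 172 and 163 TPM after stimulation and 145, 133 and 120 TPM with TRAIL. Medium and stimulated libraries overlapped, and every TRAIL-treated library was below both groups. The log2 fold change on stimulation was -0.026 (95% confidence interval -0.23 to 0.18, adjusted p = 0.820). Its sign depended on the scaling: it was 0.13 under median-of-ratios scaling (adjusted p = 0.188), 0.23 after a correction for transcript length that was added after seeing the data (adjusted p = 0.0213) and -0.20 under quantile normalization (adjusted p = 0.0375). Ccnd3 was 1.26-fold lower with TRAIL than with stimulation alone (log2 fold change -0.33, SE 0.093, adjusted p = 9.5e-03), a call lost under quantile normalization (adjusted p = 0.202). Against medium the log2 fold change with TRAIL was -0.36 (adjusted p = 0.0163), and the call was lost without medium replicate 3 or TRAIL-treated replicate 2 or 3 (adjusted p 0.0507 to 0.0662), under median-of-ratios scaling (adjusted p = 0.150) and with the length correction (adjusted p = 0.135).

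Ccnd1 was lower on stimulation and higher with TRAIL, opposite to Ccnd2. The gene (ENSMUSG00000070348, chromosome 7, 144929931 to 144939925, minus strand) encodes cyclin D1. Its level was 14.3, 14.5 and 12.5 TPM in medium, 0.557, 0.744 and 0.515 TPM after stimulation, and 6.08, 6.83 and 6.16 TPM with TRAIL. The 3 groups did not overlap, and all stimulated libraries were under 1 TPM. Ccnd1 was 22.7-fold lower after stimulation (log2 fold change -3.20, SE 0.12, adjusted p = 6.1e-09), 10.5-fold higher with TRAIL than with stimulation alone (log2 fold change 2.20, SE 0.12, adjusted p = 9.9e-08) and 2.17-fold lower with TRAIL than in medium (log2 fold change -1.0, SE 0.12, adjusted p = 2.6e-04).

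The summed markers of B cells, macrophages, erythroid cells, neutrophils and dendritic cells had the same order as Ccnd1 (medium highest, TRAIL-treated between, stimulated lowest). Those of T cells, CD8 T cells and NK cells did not. Within the macrophage set the means of C1qa and Cd14 were highest with TRAIL, unlike those of the other markers in it. The part of these cells in the Ccnd1 values was not tested. On the log2(TPM + 1) scale, where the pseudocount compresses the low stimulated values of Ccnd1 and so bears on the ranking, the genes whose profiles over the 9 libraries were most like it, among 9544 genes averaging 10 TPM or more, were H2-DMb2, Lynx1 and Hvcn1. H2-DMb2, which encodes a chain of the H2-M protein that loads peptides on MHC class II in antigen-presenting cells, had mean levels of 240.3, 25.2 and 121 TPM in the 3 groups, a root mean square difference of 0.072 from the centred log2 profile of Ccnd1. The opposite-strand gene LTO1 shares 1100 exonic bases with Ccnd1, 23.4% of its exonic length. LTO1 was at 19.9, 12.0 and 14.8 TPM in the 3 groups, and with the strand setting of the counting not stated, reads in the shared bases cannot be assigned.

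**Figure D2:**
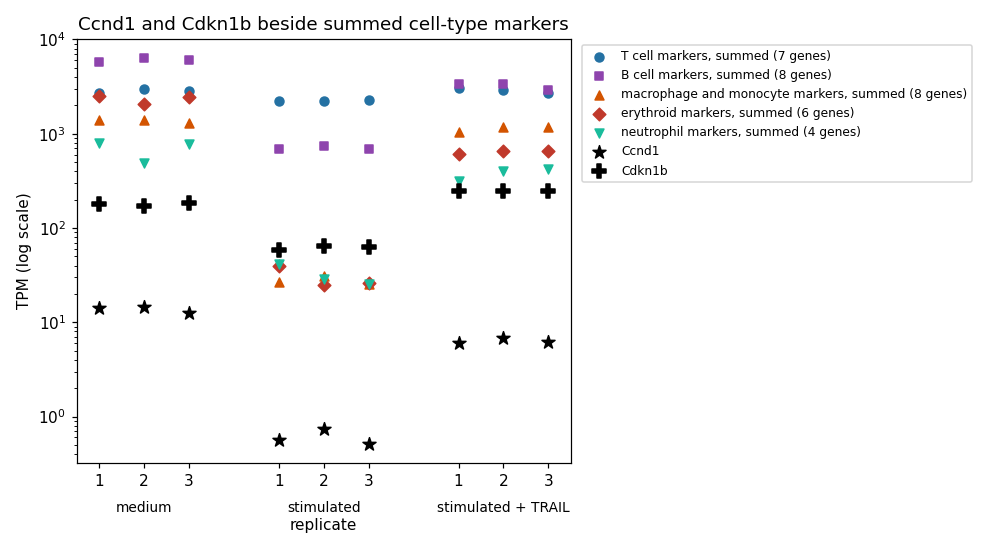
TPM on a log axis of Ccnd1 and Cdkn1b and of the summed markers of 5 cell types in each of the 9 libraries (replicates 1 to 3 of each group along the horizontal axis). T cell markers stayed between 2244 and 3059 TPM, while macrophage and monocyte markers went from 1306 or more in medium to 30.9 or less after stimulation.

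The make-up of the D-type cyclin pool shifted with these levels. In medium, Ccnd3 took 52.3% ± 1.70 of the summed D-type cyclin TPM, Ccnd2 43.4% ± 1.44 and Ccnd1 4.25% ± 0.397. After stimulation Ccnd2 took 73.7% ± 4.82 (68.2, 76.1 and 76.9% in the 3 libraries), and the share of Ccnd1 was 0.0942% ± 0.0184. With TRAIL the pool was again mostly Ccnd3, at 57.2% ± 1.33, with 40.0% ± 1.58 of Ccnd2. The libraries of the stimulated group did not overlap with the others in any of these shares. Summed D-type cyclin TPM was 325 ± 18.3 in medium, 650.3 ± 110.1 after stimulation and 232 ± 26.0 with TRAIL. These sums and shares are descriptions and were not tested.

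**Figure D3:**
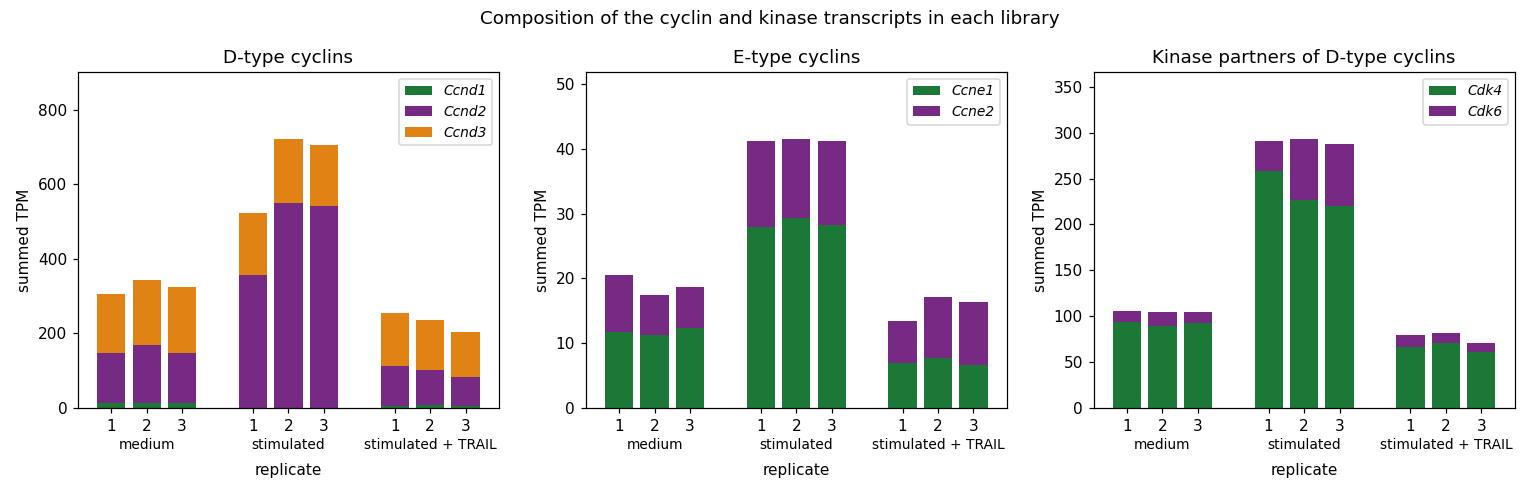
Stacked bars from 0 of summed TPM per library for the D-type cyclins, the E-type cyclins and the kinases Cdk4 and Cdk6. Purple Ccnd2 fills most of the stimulated D-type bars, and the summed Cdk4 and Cdk6 bars of the 3 stimulated libraries are nearly equal at 288 to 293 TPM although their Cdk6 part differs.

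The E-type cyclins rose on stimulation, and Ccne1 did so with little spread. Ccne1 (ENSMUSG00000002068, chromosome 7, 38097984 to 38107534, minus strand) encodes cyclin E1, a partner of CDK2 and a target of E2F. Its level was 11.7, 11.2 and 12.3 TPM in medium, 27.9, 29.4 and 28.2 TPM after stimulation, and 6.91, 7.68 and 6.62 TPM with TRAIL. All 3 groups stood apart, with the TRAIL-treated libraries lowest. Ccne1 was 2.43-fold higher on stimulation (log2 fold change 1.21, SE 0.099, adjusted p = 1.9e-06), 4.03-fold lower with TRAIL than with stimulation alone (log2 fold change -1.87, adjusted p = 8.8e-08) and 1.66-fold lower with TRAIL than in medium (log2 fold change -0.66, adjusted p = 1.1e-03). These calls held at the adjusted p limit in every refit, although the difference between TRAIL-treated and medium cells was under 1 on the log2 scale.

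Ccne2 (ENSMUSG00000028212, chromosome 4, 11191351 to 11204779, plus strand), which encodes cyclin E2, changed less. Its level was 8.82, 6.27 and 6.43 TPM in medium, 13.2, 12.1 and 13.0 TPM after stimulation, and 6.49, 9.38 and 9.77 TPM with TRAIL. The stimulated libraries were above both other groups, and the medium and TRAIL-treated libraries overlapped. Ccne2 was 1.78-fold higher on stimulation (log2 fold change 0.77, SE 0.17, adjusted p = 2.2e-03) and 1.49-fold lower with TRAIL (log2 fold change -0.55, SE 0.17, adjusted p = 0.0148), the latter lost without TRAIL-treated replicate 1 (adjusted p = 0.0556). The difference between TRAIL-treated and medium cells was 0.22 on the log2 scale (95% confidence interval -0.15 to 0.59, adjusted p = 0.341). Ccne2 made up 37.8% ± 4.67 of the E-type cyclin TPM in medium, 30.9% ± 1.51 after stimulation and 54.4% ± 5.61 with TRAIL. The opposite-strand gene Ints8 shares 609 bases with Ccne2, 17.4% of its exonic length, and lies at 52.0, 38.8 and 37.2 TPM in the 3 groups, so reads there cannot be assigned.

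Both kinase partners of the D-type cyclins rose on stimulation and were lower with TRAIL. Cdk4 (ENSMUSG00000006728, chromosome 10, 127063534 to 127067920, plus strand) was at 93.3, 89.5 and 92.1 TPM in medium, 259, 226 and 220 TPM after stimulation, and 66.2, 70.4 and 61.3 TPM with TRAIL. No libraries of the 3 groups overlapped. Cdk4 was 2.56-fold higher on stimulation (log2 fold change 1.35, SE 0.094, adjusted p = 6.1e-07), 3.56-fold lower with TRAIL than with stimulation alone (log2 fold change -1.82, SE 0.094, adjusted p = 7.7e-08) and 1.39-fold lower with TRAIL than in medium (log2 fold change -0.47, adjusted p = 4.7e-03). The last call was lost under median-of-ratios scaling (adjusted p = 0.0954). Tspan31, on the opposite strand, shares 641 bases with Cdk4, 19.7% of its exonic length, and was at 22.2, 22.1 and 16.8 TPM.

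Cdk6 (ENSMUSG00000040274, chromosome 5, 3341485 to 3531008, plus strand) was at 12.8, 15.2 and 12.6 TPM in medium, 32.0, 66.8 and 67.9 TPM after stimulation, and 13.8, 11.5 and 9.97 TPM with TRAIL. Stimulated libraries were above all others, but replicate 1 was far below the other libraries of its group. Cdk6 was 4.11-fold higher on stimulation (log2 fold change 1.89, SE 0.25, adjusted p = 8.3e-05) and 4.72-fold lower with TRAIL (log2 fold change -2.08, SE 0.25, adjusted p = 4.2e-05). Without stimulated replicate 1 these were 2.24 (SE 0.14) and -2.43 (SE 0.14), and with the length correction, which keeps that library, 2.47 (SE 0.10) and -2.53 (SE 0.10). TRAIL-treated and medium cells differed by -0.19 on the log2 scale (95% confidence interval -0.76 to 0.38, adjusted p = 0.592). Summed Cdk4 and Cdk6 TPM was 105.2 ± 0.783 in medium, 290.5 ± 2.69 after stimulation and 77.7 ± 5.66 with TRAIL. The Cdk6 share of that sum was 11.0, 22.8 and 23.6% in the stimulated libraries and 12.0 to 17.2% in the other 6, so replicate 1 alone decided whether the groups overlapped.

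The promoters of these kinases are shown because Myc, a transcription factor that binds the E-box CACGTG, was among the G1 regulators that moved most, and because the windows of both genes hold that motif. RefSeq promoter sequences (GRCm38.p6) were found for 7 of the 10 genes, and the 250 bases before the start are given here 5′ to 3′ on the plus strand, with each E-box in capitals. The RefSeq start used for Cdk6 lies inside the gene as GENCODE annotates it, downstream of the gene start given above, and positions in its window count from the RefSeq start. The Cdk4 window is chr10:127063285-127063534 and that of Cdk6 is chr5:3343643-3343892.
Cdk4: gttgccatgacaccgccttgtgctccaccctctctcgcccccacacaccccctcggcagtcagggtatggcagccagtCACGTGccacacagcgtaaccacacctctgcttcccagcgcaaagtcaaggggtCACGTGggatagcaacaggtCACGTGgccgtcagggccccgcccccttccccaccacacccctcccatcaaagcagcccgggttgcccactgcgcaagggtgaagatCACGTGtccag
Cdk6: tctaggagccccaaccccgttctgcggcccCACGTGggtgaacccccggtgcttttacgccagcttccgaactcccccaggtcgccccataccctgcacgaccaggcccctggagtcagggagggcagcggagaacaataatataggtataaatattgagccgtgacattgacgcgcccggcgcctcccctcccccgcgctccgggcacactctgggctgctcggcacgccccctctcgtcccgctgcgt
Cdk4 held 4 copies of CACGTG, which begin 172, 118, 98 and 11 bases before the start, and Cdk6 held 1, at 220 bases. The motif reads the same on both strands. Of 32851 RefSeq windows of this length, 6.02% held at least 1 copy and 7 windows (0.0213%) held 4 or more. Myc was at 142 ± 15.1 TPM in medium, 654 ± 59.7 TPM after stimulation and 196 ± 23.1 TPM with TRAIL (log2 fold changes 2.20 on stimulation and -1.73 with TRAIL, adjusted p = 1.0e-07 and 6.3e-07). None of the other windows, which belong to Ccnd3, Ccne1, Cdk2, Cdkn1b and Cdkn2c, held CACGTG. An E2F motif (TTTCCCGC, TTTCGCGC, TTTGCCGC or TTTGGCGC, on either strand) was found once, in the Cdk2 window, and in 1.86% of all windows. The forkhead motif GTAAACA, on either strand, was found once in a Ccnd3 window and in 3.17% of all windows. No window was found for Ccnd1, Ccnd2 or Ccne2. A match describes these letters only, and binding was not measured. Since the Cdk4 and Cdk6 windows were shown for holding CACGTG, its share over all windows is no test. A part of Myc in the Cdk4 and Cdk6 values was not tested.

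Cdk2, the partner of cyclin E, did not follow the D-type kinases on stimulation. The gene (ENSMUSG00000025358, chromosome 10, 128697939 to 128705031, minus strand) was at 61.1, 68.5 and 63.6 TPM in medium, 64.2, 65.8 and 70.0 TPM after stimulation, and 55.2, 50.3 and 40.4 TPM with TRAIL. Medium and stimulated libraries overlapped, and each TRAIL-treated library was below both groups. The log2 fold change on stimulation was 0.050 (95% confidence interval -0.21 to 0.31, adjusted p = 0.725), but 0.26 with the length correction (adjusted p = 0.0164). With TRAIL, Cdk2 was 1.37-fold lower than with stimulation alone (log2 fold change -0.46, SE 0.12, adjusted p = 5.9e-03). Against medium its log2 fold change was -0.41 (adjusted p = 0.0250), lost without medium replicate 2 or 3 or TRAIL-treated replicate 2 or 3 (adjusted p 0.0533 to 0.0737) and under median-of-ratios scaling (0.0888), quantile normalization (0.0525) and the length correction (0.0769).

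Cdkn1b, the gene of the CDK inhibitor p27, was lower on stimulation and the only G1 gene of the set to rise with TRAIL above medium. The gene (ENSMUSG00000003031, chromosome 6, 134920401 to 134925513, plus strand) was at 179, 170 and 183 TPM in medium, 57.8, 64.8 and 62.5 TPM after stimulation, and 245, 249 and 246 TPM with TRAIL. The groups were far apart relative to their spread. Cdkn1b was 2.88-fold lower on stimulation (log2 fold change -1.51, SE 0.081, adjusted p = 8.9e-08), 4.0-fold higher with TRAIL than with stimulation alone (log2 fold change 1.98, SE 0.081, adjusted p = 1.6e-08) and 1.39-fold higher with TRAIL than in medium (log2 fold change 0.47, SE 0.081, adjusted p = 2.2e-03). At the adjusted p limit all 3 calls held in every refit, while the difference from medium did not reach 1 on the log2 scale. Beside it, all 8 B cell, all 8 macrophage and monocyte and all 6 erythroid markers were lower on stimulation and higher with TRAIL against stimulation, the directions of Cdkn1b. Of the 7 T cell markers, 1 was higher and 2 were lower on stimulation, and 5 were higher and none lower with TRAIL against stimulation. With TRAIL against medium all 8 B cell markers and all 6 erythroid markers were lower, and of the 8 macrophage and monocyte markers 1 was higher and 2 were lower. Their part in the Cdkn1b values was not tested.

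Cdkn2c, which encodes p18, was lower on stimulation and did not pass in the other comparisons. The gene (ENSMUSG00000028551, chromosome 4, 109660876 to 109667189, minus strand) was at 13.1, 10.1 and 11.5 TPM in medium, 8.28, 7.97 and 8.57 TPM after stimulation, and 8.45, 9.98 and 9.01 TPM with TRAIL. Every medium library was above every other library, and the stimulated and TRAIL-treated libraries overlapped. Cdkn2c was 1.40-fold lower on stimulation (log2 fold change -0.43, SE 0.12, adjusted p = 9.0e-03), a call lost under median-of-ratios scaling (adjusted p = 0.0723) and quantile normalization (adjusted p = 0.297). The log2 difference between TRAIL-treated and stimulated cells was 0.13 (95% confidence interval -0.14 to 0.40, adjusted p = 0.370). Against medium it was -0.30 (95% confidence interval -0.57 to -0.035, adjusted p = 0.0792), and it passed without medium replicate 2 (-0.39, adjusted p = 0.0438).

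**Figure D4:**
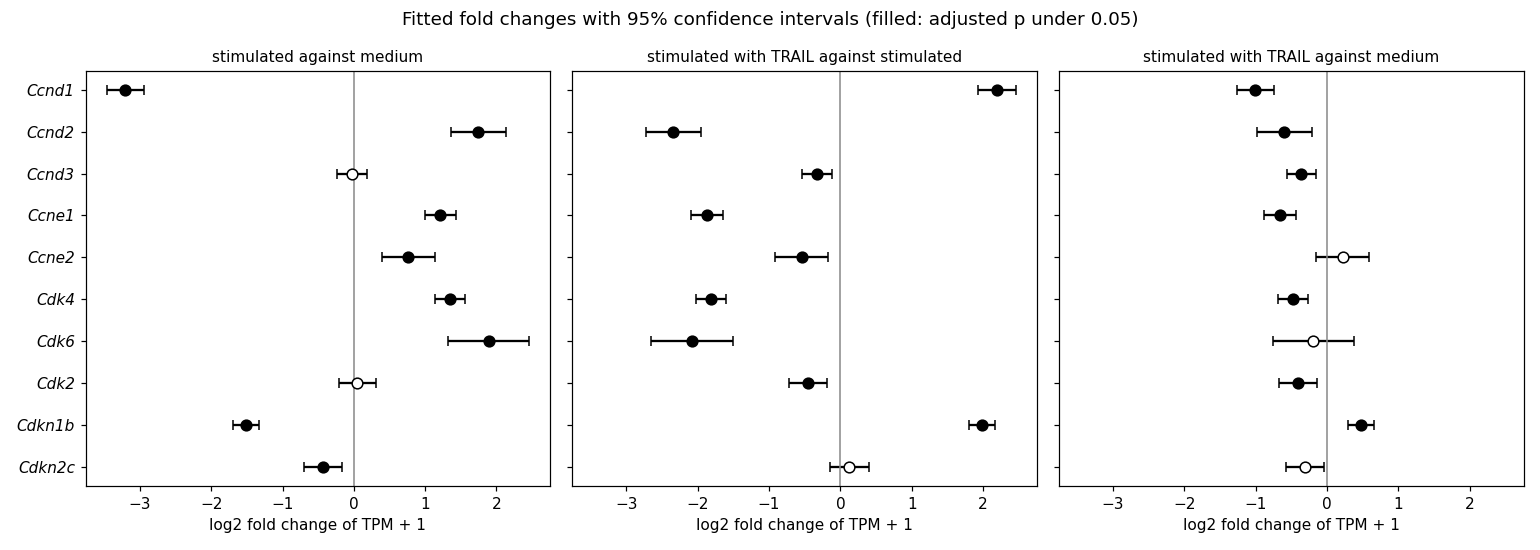
Log2 fold changes of TPM + 1 (horizontal axes) of the 10 G1 genes with 95% confidence intervals in the 3 comparisons, filled where the adjusted p was under 0.05. In the first panel Ccnd1 (-3.20) and Cdkn1b (-1.51) lie on the left and Ccnd2 (1.74) and Cdk6 (1.89) on the right, and in the second panel the sides are exchanged.

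Per length, the order of the members changed with the condition. In medium, Cdkn1b (177 ± 6.62 TPM) and Ccnd3 (170 ± 9.75 TPM) were at the top with overlapping libraries, followed by Ccnd2, Cdk4 and Cdk2, which stood apart from each other. Ccnd1 and Cdk6 overlapped, as did Ccne1 and Cdkn2c, and Ccne2 was last at 7.17 ± 1.43 TPM. After stimulation Ccnd2 (483 ± 109 TPM), Cdk4 (235 ± 20.8 TPM) and Ccnd3 led without overlap, Cdkn1b stood beside Cdk2 and Cdk6 with overlapping libraries, and Ccnd1 was last. With TRAIL, Cdkn1b (247 ± 1.98 TPM) led alone, and Cdk6, Cdkn2c, Ccne2, Ccne1 and Ccnd1 formed a low end in which each overlapped with the next. The summed TPM of Cdkn1b and Cdkn2c over that of the cyclins and kinases was 0.369 ± 0.0273 in medium, 0.0670 ± 0.00420 after stimulation and 0.688 ± 0.0716 with TRAIL, with no overlap between the groups. This ratio leaves out the other CDK inhibitors given next. After stimulation Cdkn1a, 1 of those left out, was at 63.0 TPM, beside 61.7 TPM of Cdkn1b.

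The other CDK inhibitors did not move as a family. Cdkn1a, the gene of p21 and a paralog of Cdkn1b, was at 1.58, 1.78 and 1.93 TPM in medium, 61.2, 65.3 and 62.4 TPM after stimulation, and 12.1, 18.0 and 17.4 TPM with TRAIL. It was opposite to Cdkn1b, with log2 fold changes of 4.53 on stimulation (SE 0.15, adjusted p = 2.7e-09) and -1.95 with TRAIL (adjusted p = 1.1e-06), and it stayed above medium with TRAIL (2.59, adjusted p = 1.9e-06). The ratio of Cdkn1b to Cdkn1a was 101 ± 10.3 in medium, 0.980 ± 0.0304 after stimulation and 16.1 ± 3.62 with TRAIL. Cdkn1c, which encodes p57, was at 1.44 ± 0.299, 1.37 ± 0.269 and 5.13 ± 0.344 TPM, a rise with TRAIL against both other groups (log2 fold changes 1.38 and 1.33, adjusted p = 1.0e-05 and 1.2e-04).

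Of the INK4 genes, Cdkn2d (p19) was at 50.1, 35.4 and 50.1 TPM in the 3 groups. It fell by 0.49 on the log2 scale on stimulation (adjusted p = 0.0283) and was 0.51 higher with TRAIL (adjusted p = 0.0244). Cdkn2a and Cdkn2b were low throughout, with means of 1.61 and 1.97 TPM after stimulation and at most 0.387 TPM in the other groups. Both passed as higher on stimulation (1.05 and 1.23 on the log2 scale) and lower with TRAIL (-1.11 for each), and 1 medium library listed Cdkn2a at the lowest value of the table. Each reached 1 TPM only in stimulated libraries, so both met the filter on low values only through the group where they were high. Their calls therefore carry little weight, and the counts of the wider list below include both genes.

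A wider list of 46 other G1 genes, all of them tested, was counted by role, and its median log2 fold changes were 0.43, -0.79 and -0.20 in the 3 comparisons. On stimulation 27 were higher and 9 lower (28.8% and 40.0% of all genes tested). With TRAIL against stimulation 9 were higher and 31 lower (33.5% and 33.5% of all genes), and with TRAIL against medium 5 were higher and 14 lower (8.03% and 24.6% of all genes). The last count was 6 higher and 8 lower under median-of-ratios scaling, quantile normalization and the length correction. All 9 genes grouped under origin licensing rose on stimulation, most of them genes of the replicative helicase, which is loaded on DNA before S phase. Mcm2, Mcm3, Mcm4, Mcm5, Mcm6, Mcm7 and Cdc6 rose by 1.28 to 2.35 on the log2 scale and were lower with TRAIL by log2 fold changes of -2.65 to -1.26. Mcm3, a subunit of that helicase, went from 44.7 ± 5.22 to 231.7 ± 23.9 and 36.1 ± 3.09 TPM. Pcna, the sliding clamp of DNA polymerase, was among the exceptions with TRAIL, at 265, 483 and 385 TPM, since its difference of -0.33 from stimulation alone did not pass (adjusted p = 0.102). Cdt1, a helicase loading factor, was at 34.4, 63.0 and 50.5 TPM, lower with TRAIL by only a log2 fold change of -0.31 (adjusted p = 0.025) and still above medium (0.55, adjusted p = 4.4e-03).

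E2F and DP factors divided by member, with 5 of 10 higher and 2 lower on stimulation, and 1 higher and 6 lower with TRAIL, so that 7 passed in each, near the 68.7% and 67.1% of all genes. E2f1, an activator of S phase genes, was at 7.23, 32.2 and 7.10 TPM, and its partner Tfdp1 was at 51.7, 205 and 40.4 TPM. E2f3 was at 5.58, 12.9 and 3.15 TPM. E2f4 and E2f6, which act mostly as repressors, were also lower with TRAIL (log2 fold changes -1.35 and -1.45). E2f2 was the reverse, at 39.0, 16.0 and 22.3 TPM (log2 fold change -1.24 on stimulation, adjusted p = 6.7e-06).

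Pocket proteins, which hold E2F in check, were split as well. Rb1 was at 56.1, 25.3 and 43.8 TPM and Rbl2 at 68.8, 26.5 and 54.0 TPM, both lower on stimulation (log2 fold changes -1.14 and -1.35) and higher with TRAIL (0.78 and 1.0), whereas Rbl1 rose by 0.39 on stimulation. The forkhead genes Foxo1, Foxo3 and Foxo4, whose proteins are known activators of Cdkn1b transcription, had the direction of Cdkn1b in both comparisons. Foxo1 was at 90.7, 38.6 and 89.2 TPM and Foxo4 at 34.3, 12.8 and 34.2 TPM, with log2 fold changes on stimulation of -1.22 and -1.36. None of the 3 forkhead genes passed with TRAIL against medium, where Cdkn1b did.

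Of the 9 genes that degrade p27 and the cyclins, 6 passed on stimulation (5 higher, 1 lower), where 68.7% of all genes tested passed. With TRAIL against stimulation 8 passed (1 higher, 7 lower), against 67.1% of all genes, so these counts say little about the 9 genes. Only Cks1b also reached 1 on the log2 scale in either comparison, a limit that 31.9% and 30.9% of all genes met. Cks1b, the cofactor with which the ubiquitin ligase SKP2 recognises p27, was at 15.6, 45.0 and 15.1 TPM (1.48 on stimulation and -1.50 with TRAIL). Skp2 itself was at 5.73, 6.33 and 4.12 TPM, a difference of 0.12 on stimulation that did not pass (adjusted p = 0.355), and it was lower with TRAIL than with stimulation alone (-0.52, adjusted p = 2.4e-03). Cdc25a, the phosphatase that activates CDK2, was at 15.3, 38.8 and 13.9 TPM (1.28 and -1.41). Cdk1, the kinase of mitotic entry, was at 7.06, 13.6 and 4.85 TPM (0.89 on stimulation and -1.31 with TRAIL).

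**Figure D5:**
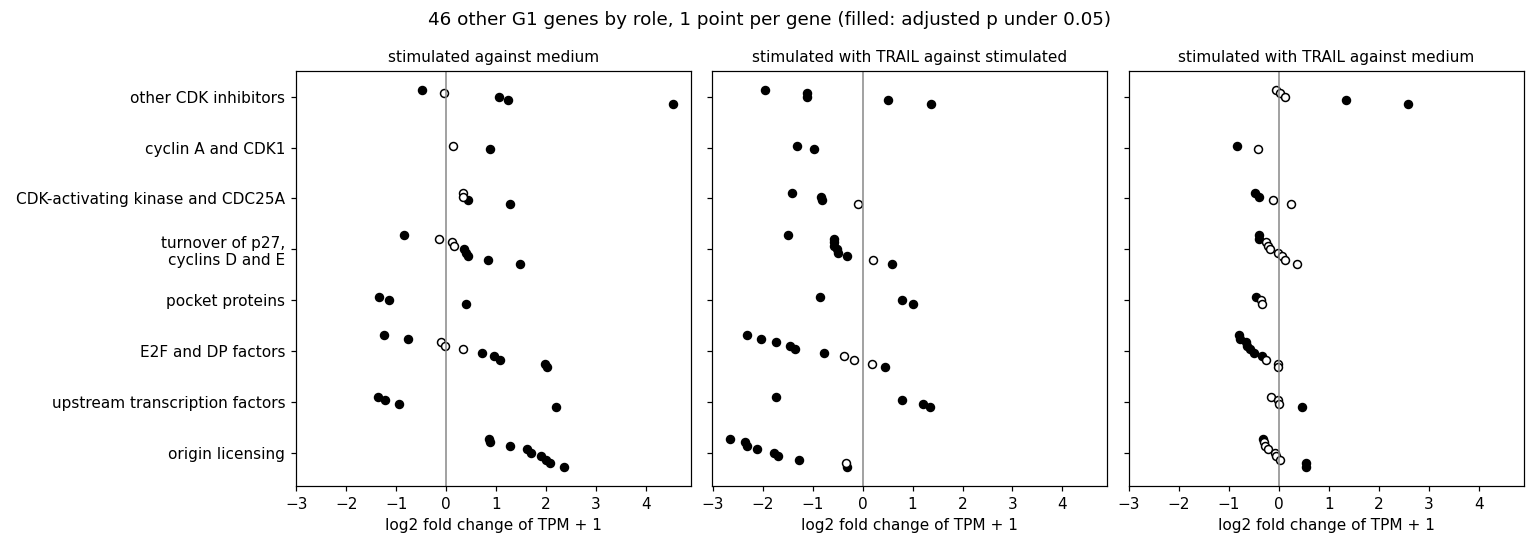
Log2 fold changes of TPM + 1 (horizontal axes) of the 46 other G1 genes in 3 comparisons, grouped by role, 1 point per gene, filled where the adjusted p was under 0.05. The 9 origin licensing genes all lie to the right on stimulation, and in the other CDK inhibitors Cdkn1a lies at 4.53, far from the rest of its group.

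Because TPM values are shares of a fixed total, the scaling of the libraries bears on small changes. With median-of-ratios scaling, the median gene shifted by 0.14 on the log2 scale on stimulation, by 0.027 with TRAIL against stimulation and by 0.16 with TRAIL against medium, and with quantile normalization by 0.17, -0.041 and 0.14. Of all genes that passed with TRAIL against medium, 24.6% were higher in the TPM values as deposited, 46.6% after median-of-ratios scaling, 42.6% after quantile normalization and 45.2% after the length correction. On stimulation the share of higher genes was 41.9% as deposited and 53.0% after the length correction. The G1 genes that passed with TRAIL against medium were 1 higher and 6 lower as deposited, and 1 higher and 3 lower after median-of-ratios scaling. Ccnd1, Ccne1 and Cdkn1b kept their calls in all 3 comparisons under each scaling, as did Ccnd2, Ccne2, Cdk4 and Cdk6 in the comparisons with stimulated cells.

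Other genes shared the profiles of single members. Closest to Ccnd2 over the 9 libraries was Pfas, an enzyme of purine synthesis, at 16.1, 55.0 and 10.8 TPM (root mean square difference 0.063 on the centred log2 scale), followed by Cad, which starts pyrimidine synthesis. Closest to Cdk6 was Pole, the catalytic subunit of DNA polymerase epsilon, at 6.14, 25.0 and 4.80 TPM (0.065). Pole was at 14.3, 30.8 and 30.1 TPM in the stimulated libraries, low in replicate 1 as Cdk6 was. Closest to Cdk4 was Clns1a, at 60.3, 166 and 42.8 TPM (0.071), to Ccne1 Tmem109 (0.082), to Ccne2 Cox11 (0.13), to Ccnd3 BC029722 (0.049), to Cdk2 Hmg20b (0.038) and to Cdkn2c Zfp53 (0.066).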

How the data were processed

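Bulk RNA-seq was measured in 9 libraries, 3 groups of 3 taken from the sample labels. The authors trimmed reads with Trimmomatic 0.36 and aligned them with HISAT2 2.1.0 to GRCm38. The submitters' processing notes also name SAMtools 1.2, StringTie 2.1.2, DESeq2 and the build GRCh38, with no roles. The deposited values are TPM per gene, summing to 1000003 in each library, and the program and strand setting behind them are not given in the sources used here. TPM keeps no read totals, so depth and counting error are unknown and precision rests on the libraries. The lowest value of the table, 0.0001, was listed for 57.7 to 60.2% of genes per library.

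From the TPM values, log2(TPM + 1) was fitted with limma 3.58.1 in R 4.3.3 (lmFit, and eBayes with a trend, all libraries, no block) for the 15536 genes that reached 1 TPM in 3 or more libraries, with two-sided p-values adjusted by Benjamini-Hochberg. An exact test of 3 libraries against 3 cannot go below 0.1. Named genes were all members, wider-list genes that passed with a log2 fold change of 1 or more in either direction in a comparison with stimulated cells, every CDK inhibitor on that list, and the nearest profiles; other genes were named after their values were seen. The nearest profile to 1 member is not reported here. The members and lists were chosen with earlier results of these data known. Same-numbered samples were not shown to be pairs: correlations of their deviations were -0.31 to 0.29, with 3 of 9 pairs over 0.1. Such correlations cannot exclude that same-numbered samples shared an animal or a day. Fits were repeated with pseudocounts of 0.1 and 5, no filter or 5 TPM, median-of-ratios or quantile scaling, other variance models, pairs of groups alone, a replicate block, stricter calls, and 1 library omitted at a time. The transcript length correction removed from each library a spline of its deviation on the log10 length of the longest GENCODE M21 transcript, and was chosen after seeing the data. The fit was tested on simulated data: in 3 sets of 15536 genes with 200 changed, it recovered at least 90% with at most 12 false calls. Recovery in sets with most genes changed was not tested. In the libraries themselves, 68.7% of the genes tested passed on stimulation and 67.1% with TRAIL against stimulation.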

Additional observations from a re-analysis of the deposited data

How the results depend on the processing

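Of 510 fold changes of the 10 genes recomputed in 17 refits, 482 kept their direction and their side of the threshold, 23 lost the call, 3 gained it and 2 changed sign, both for Ccnd3 on stimulation: 0.13 under median-of-ratios scaling and 0.23 with the length correction. Of those that changed, 8 were in comparisons with stimulated cells and 20 in TRAIL-treated against medium cells. The count of 7 G1 genes passing with TRAIL against medium was 4 under median-of-ratios scaling, 4 at an adjusted p under 0.01, 1 with a log2 fold change of 1 or more in either direction, and 4 to 7 when 1 library was left out, with 4 without medium replicate 3, TRAIL-treated replicate 2 or TRAIL-treated replicate 3. For the 46 wider G1 genes, the same limit left 21 on stimulation, 23 with TRAIL against stimulation and 2 with TRAIL against medium. In the last comparison 9 passed at an adjusted p under 0.01 and 11 to 15 with 1 library left out, against 19 with all libraries, with 12 without medium replicate 3 and 11 without TRAIL-treated replicate 3. The replicate block changed no call of the 10 genes (8, 9 and 7 passed), although same-numbered samples were not shown to be pairs. Without read totals, the precision of genes near 1 TPM, such as Ccnd1 after stimulation, cannot be separated from counting error.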
